A study of Mus musculus with 6 samples.

Results

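Fatty acid oxidation was followed through 9 genes, the regulators Ppara and Ppargc1a and the enzymes Cpt1a, Cpt2, Acadm, Acadl, Acadvl, Hadha and Ehhadh, in mouse renal tubular epithelial cells (TECs) with and without knockdown of Sox9. The genes were taken by name from a list drawn up with earlier results of these data known, and all 9 were found among the 30315 genes listed. None of the 7 that were expressed highly enough to be tested passed the test for a difference between siSox9 and siNC, while 30.4% of all genes tested did. Acadl had by far the highest FPKM of the 9 in every library, Ppargc1a was low, and Ppara was near the limit of detection.

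All cells were primary TECs of C57BL/6 mice, isolated from kidney, and all went through hypoxia/reoxygenation (H/R), a culture model of ischemia-reperfusion injury. H/R was 6 h in glucose-free medium at 1.0% oxygen, then 18 h of reoxygenation in complete medium. In the siSox9 group (n = 3 libraries) the cells received an siRNA against Sox9 12 h earlier, and in the siNC group (n = 3) a control siRNA. No library without H/R was analysed here, so the values describe injured cells only. The siSox9 group rests on the label of a single siRNA. The labels do not say whether the libraries of a group came from separate animals or cultures, so p-values measure the spread between these libraries, which may be technical.

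Fatty acids are a main fuel of kidney tubules, the proximal tubule above all. Long-chain fatty acids enter mitochondria as carnitine esters through CPT1 and CPT2 and are then shortened in repeated rounds by acyl-CoA dehydrogenases of different chain-length preference and by the trifunctional protein, while very long and branched chains are handled in peroxisomes. PPARα, a nuclear receptor activated by fatty acids, and its coactivator PGC-1α drive transcription of many of these enzymes, and loss of this program is well known in injured and fibrotic kidney tubules.

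The libraries held between 23893197 and 25725743 reads, as recovered from the deposited FPKM values (fragments scaled to exon length and to the size of the library). Sox9 read 8.93, 8.61 and 9.07 FPKM with siSox9 and 25.7, 26.5 and 25.6 FPKM with siNC, a fall of 1.45 in log2(FPKM + 1) (limma, Benjamini-Hochberg adjusted p = 7.03e-06), so the targeted gene followed the labels in all 6 libraries. The general epithelial markers Epcam, Cdh1, Krt8 and Krt18 were abundant, with Epcam at 123 to 141 FPKM. Of the markers that define the proximal tubule in the kidney, Slc34a1 did not exceed 0.00895 FPKM, Hnf4a 0.0245 FPKM and Slc5a2 0.0286 FPKM, while Lrp2 (2.06 to 2.58 FPKM) and Ggt1 (6.57 to 7.92 FPKM) were detected. Gatm (3.90 to 5.45 FPKM), Cubn (0.419 to 0.515 FPKM) and Aqp1 (0.110 to 0.399 FPKM) were detected as well. Slc5a12 did not exceed 0.0191 FPKM and Slc13a3 0.0232 FPKM, and Slc22a6 and Slc22a8 were not listed. The cells therefore carried the epithelial label, but the proximal tubule list was mixed. Its transporters Slc34a1, Slc5a2, Slc5a12 and Slc13a3 and the lineage factor Hnf4a were near 0. The 6 macrophage and leukocyte markers summed to 92.6 to 99.1 FPKM with siNC and 104 to 114 FPKM with siSox9, most of it Lyz2. Of the 4 tested, only Lyz2 passed, from a mean of 71.9 to 83.4 FPKM, a log2 difference of 0.21 (limma, adjusted p = 0.0175). Csf1r (-0.04), Adgre1 (0.10) and Cd68 (0.10) did not pass (limma, adjusted p = 0.577, 0.480 and 0.241), and their groups overlapped. Both podocyte markers tested were lower, Podxl with a log2 difference of -0.57 (limma, adjusted p = 1.58e-04) and Synpo with -0.33 (limma, adjusted p = 0.00636), while the defining podocyte gene Nphs1 was at 0 in every library, and the summed podocyte list was 18.8 to 19.5 FPKM with siNC and 12.5 to 13.9 FPKM with siSox9. Cldn16, of the thick ascending limb, was lower (-0.52; limma, adjusted p = 0.00272) and Cdh16, a general renal epithelial cadherin, was higher (0.36; limma, adjusted p = 3.07e-04). Cldn16 was the only tested gene of its list, in which Slc12a1 did not exceed 0.133 FPKM and Umod 0.0599 FPKM in any library. None of the tested markers of proximal tubule (3), collecting duct (1), endothelium (1) or fibroblast and pericyte (1) was called. The 4 adipocyte markers listed summed to at most 0.133 FPKM in any library. What part these cells have in the values below was not tested, and in bulk RNA fewer cells of a type and less RNA per cell cannot be told apart.

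To show what precedes the starts of these genes, the 250 bases before each RefSeq start (GRCm38.p6) were read, and 4 of the 9 stretches are printed. Acadl is shown as the gene with the highest FPKM, and Acadvl and Cpt1a because they carry a nuclear receptor motif close to the start. Ppargc1a is shown for its contrast in base composition and because its libraries did not overlap between groups. Each is written 5′ to 3′ on the strand of the gene and ends just before the start. Capitals mark AGGTCA, the core bound by nuclear receptors such as PPARα, and CCGCCC, the GC box bound by SP1, in either orientation. They lie at chr1:66863310-66863559 (- strand), chr11:70015429-70015678 (- strand), chr19:3323051-3323300 (+ strand) and chr5:51567726-51567975 (- strand). GENCODE M21 places no exon in the stretches of Acadl and Acadvl, and exons cover 16 bases of that of Cpt1a and 1 base of that of Ppargc1a.
Acadl: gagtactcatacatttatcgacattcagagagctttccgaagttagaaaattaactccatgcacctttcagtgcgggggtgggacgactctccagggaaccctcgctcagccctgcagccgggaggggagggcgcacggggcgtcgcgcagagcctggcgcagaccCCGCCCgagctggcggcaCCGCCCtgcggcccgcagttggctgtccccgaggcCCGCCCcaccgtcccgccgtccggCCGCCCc
Acadvl: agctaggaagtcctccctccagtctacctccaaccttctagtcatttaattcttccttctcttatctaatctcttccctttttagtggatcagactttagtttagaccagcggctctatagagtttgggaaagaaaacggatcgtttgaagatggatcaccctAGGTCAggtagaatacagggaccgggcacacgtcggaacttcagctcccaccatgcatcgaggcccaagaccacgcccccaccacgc
Cpt1a: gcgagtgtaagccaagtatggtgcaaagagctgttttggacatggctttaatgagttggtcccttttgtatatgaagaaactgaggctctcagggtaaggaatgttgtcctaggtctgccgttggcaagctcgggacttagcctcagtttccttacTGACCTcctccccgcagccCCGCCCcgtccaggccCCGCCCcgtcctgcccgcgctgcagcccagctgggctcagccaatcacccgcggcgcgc
Ppargc1a: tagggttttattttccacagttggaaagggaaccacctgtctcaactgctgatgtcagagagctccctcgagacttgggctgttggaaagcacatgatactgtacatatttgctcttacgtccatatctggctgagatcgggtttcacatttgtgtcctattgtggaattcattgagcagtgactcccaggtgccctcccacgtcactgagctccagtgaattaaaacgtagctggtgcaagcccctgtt

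The Acadl stretch held 25 CpG and 68% G and C, with 4 GC boxes at 84, 66, 31 and 7 bases before the start. That of Ppargc1a held 5 CpG and 48% G and C, with none of the motifs searched. Across all 32851 RefSeq stretches of this length the medians were 6 CpG and 52.4%. In Cpt1a the AGGTCA core (read as TGACCT) began 94 bases before the start, followed by GC boxes at 75 and 59 bases, and in Acadvl the core began 87 bases before the start with no GC box in the stretch. Acadm had the core as well, 249 bases before its start, so it was present in 3 of 9 stretches against 14% of all. A GC box was present in 6 of 9 (Acadl, Cpt2, Hadha, Ppara, Ehhadh and Cpt1a) against 32.7% of all. The RefSeq starts of Hadha and Ppara lie 182 and 793 bases inside the listed genes. GENCODE M21 exons cover 182 bases of the Hadha stretch and 150 bases of the Ppara stretch. The direct repeat AGGTCANAGGTCA to which PPARα binds with its partner RXR was in 0 of 9 against 0.0335% of all, the estrogen-related receptor element TCAAGGTCA in 0 of 9 against 0.387%, and the SOX core ACAAAG or ACAATG in 0 of 9 against 25.2%. All searches covered both strands, and the direct repeat and the estrogen-related receptor element contain AGGTCA themselves. A match is only a run of letters, and a missing match says nothing about binding, at distant sites least of all.

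FPKM values are scaled to exon length, here that of all annotated exons of a gene together, so comparisons between genes depend on this length. Acadl, with 2005 bases, had 3978 to 4391 reads per library, and Hadha, with 8730 bases, had 3326 to 3660. Length of the transcripts actually made was not tested. Over the 6 libraries Acadl had a mean of 84.9 FPKM, followed by Acadvl with 17.3, Hadha with 16.0, Cpt2 with 14.1, Acadm with 11.3, Cpt1a with 8.55 and Ehhadh with 1.41 FPKM. The regulators came last, Ppargc1a with 0.189 and Ppara with 0.0159 FPKM. The FPKM of Acadl was 4.91 times that of the next gene. Acadvl and Hadha were the only neighbours in this order whose ranges over the libraries overlapped. The 9 genes summed to between 150.2 and 158.2 FPKM per library, and Acadl made up 53.2% to 56.6% of that sum. The sums ran from 151.9 to 158.2 FPKM with siSox9 and from 150.2 to 157.3 FPKM with siNC, so they overlapped.

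**Figure D1:**
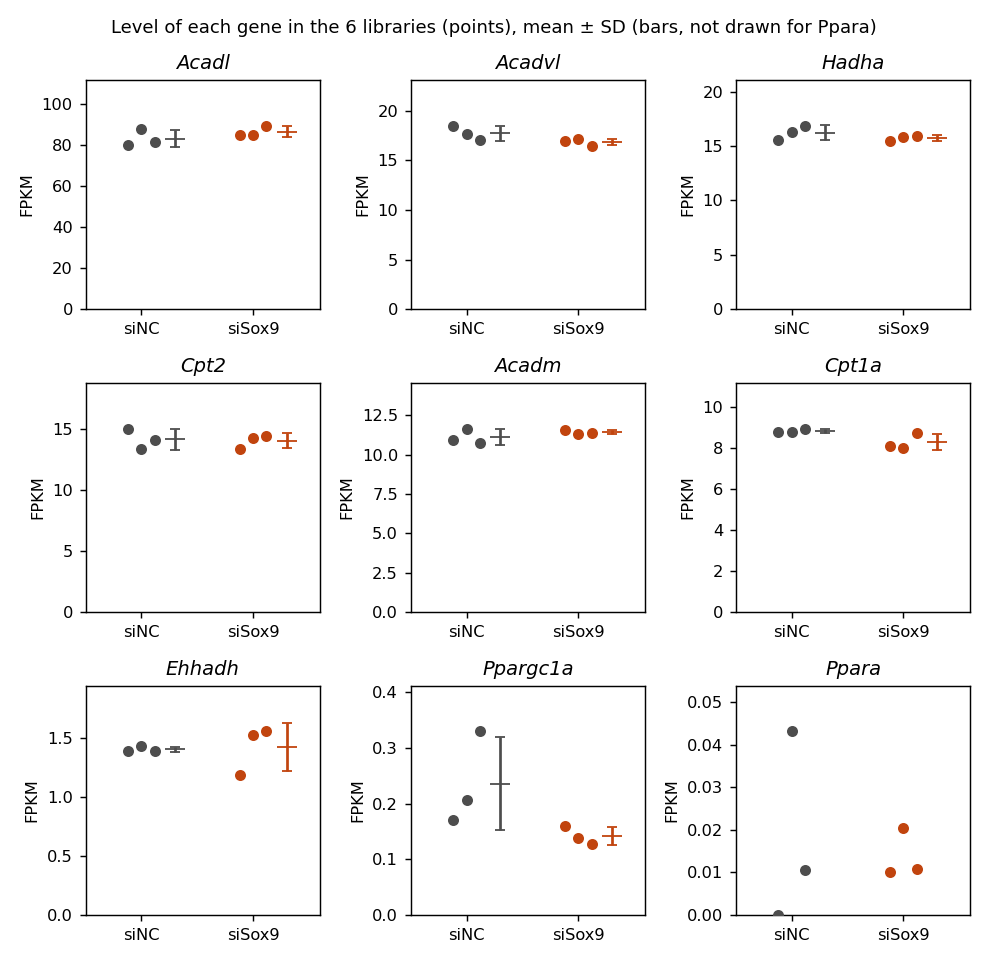
FPKM of each of the 9 genes (vertical axes, each from 0) in the 3 siNC and 3 siSox9 libraries, ordered by mean level. Points are libraries and bars are mean ± SD, not drawn for Ppara, and only in Cpt1a and Ppargc1a do all siSox9 points lie below all siNC points.

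Ppara (ENSMUSG00000022383, chromosome 15, 85734983 to 85802819, + strand) encodes PPARα, the receptor that senses fatty acids. It was listed at 0.0101, 0.0205 and 0.0109 FPKM with siSox9 and at 0, 0.0432 and 0.0105 FPKM with siNC. This corresponded to 4 reads in all 3 siSox9 libraries together and 5 reads in all 3 siNC libraries. A level of 3 reads in a library, which is what a count of 0 allows, was 0.0304 to 0.0327 FPKM, so 5 of the 6 libraries were below it. Ppara was thus not detectable at this depth beyond a few reads, and no fold is given.

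Ppargc1a (ENSMUSG00000029167, chromosome 5, 51454250 to 51567726, - strand) encodes PGC-1α, the coactivator that couples energy demand to mitochondrial gene expression. It read 0.159, 0.137 and 0.127 FPKM with siSox9 and 0.171, 0.207 and 0.330 FPKM with siNC. Every siSox9 library was below every siNC library, but the gap between the nearest of them was small and siNC replicate 3 stood well above the rest. The reads behind these levels were 27, 23 and 20 against 28, 33 and 54. With a mean of 0.141 ± 0.0164 FPKM against 0.236 ± 0.0831 FPKM (SD, n = 3 each), the gene was under the minimum of 1 FPKM, averaged over the 6 libraries, set for the test. In limma without that minimum, over 28122 genes, the log2(FPKM + 1) difference was -0.11 (adjusted p = 0.284), a scale that compresses genes at such low levels. In limma voom on the recovered reads, chosen after the data were seen, the log2 difference was -0.68 ± 0.30 (SE), with a 95% interval of -1.30 to -0.05 (limma voom, adjusted p = 0.168 over 25761 genes). Leaving out siNC replicate 3 brought it to -0.41 (limma voom, adjusted p = 0.526) and leaving out siNC replicate 1 to -0.88 (limma voom, adjusted p = 0.0616). Ppargc1a therefore had the lowest siSox9-to-siNC ratio of the 8 detectable genes, but did not pass the test at this depth.

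Cpt1a (ENSMUSG00000024900, chromosome 19, 3323301 to 3385732, + strand) encodes the liver-type carnitine palmitoyltransferase of the outer mitochondrial membrane, the rate-limiting entry of long-chain fatty acids and the enzyme that malonyl-CoA inhibits. It read 8.12, 8.01 and 8.71 FPKM with siSox9 and 8.76, 8.77 and 8.95 FPKM with siNC. The groups did not overlap, although siSox9 replicate 3 came close to the siNC libraries. Such a gap was the case for 1 of the 7 genes tested, and for 46.3% of all genes tested. The means were 8.28 ± 0.376 and 8.83 ± 0.105 FPKM (SD, n = 3 each). The log2(FPKM + 1) difference was -0.08 ± 0.04 (SE), with a 95% interval of -0.18 to 0.01, and did not pass the test (limma, adjusted p = 0.158). The exact two-sided permutation test gave p = 0.1, the smallest that 3 libraries against 3 can give.

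Cpt2 (ENSMUSG00000028607, chromosome 4, 107903981 to 107923610, - strand) encodes the inner-membrane enzyme that turns the carnitine esters back into acyl-CoA. It read 13.3, 14.3 and 14.4 FPKM with siSox9 and 15.03, 13.3 and 14.1 FPKM with siNC, so the 2 groups covered nearly the same range. The log2(FPKM + 1) difference was -0.01 ± 0.05 (SE), with an interval of -0.13 to 0.11 (limma, adjusted p = 0.885). Its sign turned to 0.01 with median-centred values and to 0.02 with TPM, so no direction can be given.

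The 3 acyl-CoA dehydrogenases catalyse the first oxidation of each round, Acadvl for very long, Acadl for long and Acadm for medium chains. Acadvl (ENSMUSG00000018574, chromosome 11, 70010183 to 70015411, - strand) read 16.9, 17.1 and 16.5 FPKM with siSox9 and 18.5, 17.6 and 17.0 FPKM with siNC. The siSox9 libraries lay at the lower end, and overlapped the lowest siNC library only. The log2(FPKM + 1) difference was -0.07 ± 0.04 (SE), with an interval of -0.16 to 0.02 (limma, adjusted p = 0.221). Dvl2, a Wnt pathway scaffold gene on the opposite strand, covers 1151 bases (42.85%) of the Acadvl exons, and the sources used here do not say whether reads were counted by strand. Dvl2 rose from 2.67 ± 0.151 to 3.72 ± 0.277 FPKM (SD, n = 3 each), a log2 difference of 0.37 (limma, adjusted p = 0.00464). Unless reads were counted by strand, those of Acadvl and Dvl2 in the shared stretch cannot be told apart.

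Acadl (ENSMUSG00000026003, chromosome 1, 66830839 to 66863277, - strand) read 85.1, 85.2 and 89.6 FPKM with siSox9 and 79.9, 88.0 and 81.5 FPKM with siNC. Its highest library was in siSox9 and its lowest in siNC, with siNC replicate 2 inside the siSox9 range. The means were 86.6 ± 2.54 and 83.1 ± 4.26 FPKM (SD, n = 3 each), and the log2(FPKM + 1) difference was 0.06 ± 0.04 (SE), with an interval of -0.04 to 0.16 (limma, adjusted p = 0.343). With 3978 to 4391 reads per library, Acadl was the most deeply covered of the 9 genes. Acadm (ENSMUSG00000062908, chromosome 3, 153922357 to 153944632, - strand) read 11.5, 11.3 and 11.4 FPKM with siSox9 and 10.9, 11.7 and 10.7 FPKM with siNC. The siSox9 libraries lay close together and inside the siNC range. The log2(FPKM + 1) difference was 0.04 ± 0.04 (SE), with an interval of -0.05 to 0.13 (limma, adjusted p = 0.507).

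Hadha (ENSMUSG00000025745, chromosome 5, 30118304 to 30155162, - strand) encodes the α subunit of the mitochondrial trifunctional protein, which carries the hydratase and the long-chain hydroxyacyl-CoA dehydrogenase. It read 15.4, 15.8 and 15.9 FPKM with siSox9 and 15.5, 16.2 and 16.9 FPKM with siNC, and the groups overlapped. The log2(FPKM + 1) difference was -0.04 ± 0.04 (SE), with an interval of -0.13 to 0.05 (limma, adjusted p = 0.484). Hadhb, the β subunit with the thiolase, starts 86 bases away on the opposite strand. It had 8.62 ± 0.523 FPKM with siSox9 and 8.77 ± 0.699 FPKM with siNC (SD, n = 3 each) and a log2 difference of -0.02 (limma, adjusted p = 0.833). The ratio of Hadha to Hadhb FPKM was 1.83 ± 0.0865 with siSox9 and 1.85 ± 0.0815 with siNC (SD, n = 3 each), between 1.73 and 1.95 in every library.

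Ehhadh (ENSMUSG00000022853, chromosome 16, 21761287 to 21787844, - strand) encodes the bifunctional enzyme of peroxisomal oxidation, a classical PPARα target in liver. It read 1.18, 1.53 and 1.55 FPKM with siSox9 and 1.39, 1.43 and 1.39 FPKM with siNC. The siSox9 libraries spread to both sides of the siNC libraries, with replicate 1 the lowest of all 6. The reads behind each value were few, from 92 to 117, and the log2(FPKM + 1) difference was 0.01 ± 0.08 (SE), with the widest interval of the 7 genes, -0.18 to 0.19 (limma, adjusted p = 0.944). Its sign turned when siSox9 replicate 2 (-0.02) or replicate 3 (-0.03) was left out, so no direction can be given. The log2(FPKM + 1) scale compresses so low a gene. With limma voom on the recovered reads, its log2 interval was wider, -0.30 to 0.32 (limma voom, adjusted p = 0.969).

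**Figure D2:**
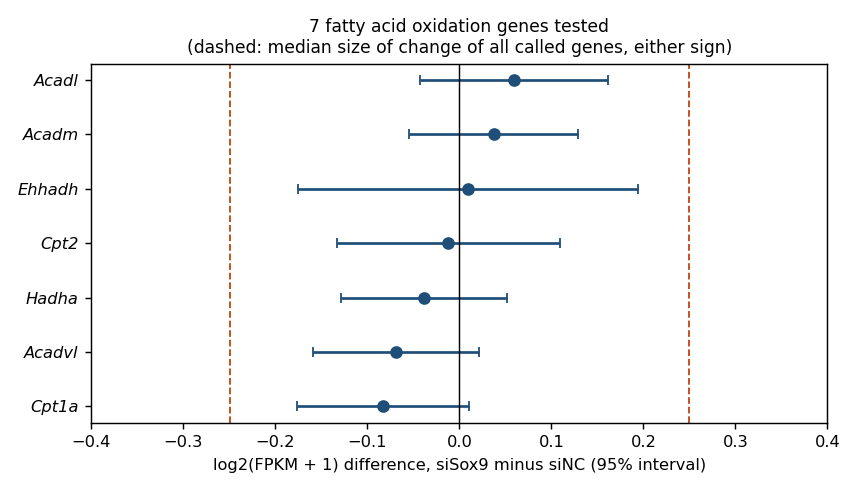
Difference in log2(FPKM + 1), siSox9 minus siNC (horizontal axis), for the 7 genes averaging 1 FPKM or more; points are limma estimates and bars 95% intervals. Every interval includes 0, and all lie inside the dashed lines at 0.25 to either side, the median size of change of the genes called. This scale compresses the low gene Ehhadh, whose log2 interval with limma voom (not drawn) was -0.30 to 0.32.

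Of the 7 genes tested, 0 were called at an adjusted p under 0.05 (limma), against 30.4% of the 12009 genes tested, 12.8% higher (1532 genes) and 17.6% lower (2118 genes). With median-centred values that split was 1959 higher and 1765 lower. At an unadjusted p under 0.05 the count was also 0 of 7, against 42.1% of all genes. With limma voom on the recovered reads it was 0 of 7, with 0 at an unadjusted p under 0.05, against 35.4% of 10481 genes called. The estimates were above 0 for 3 genes and below 0 for 4, with a median of -0.01, as over all genes tested (-0.01). Their median size without sign was 0.0386, against 0.110 over all genes tested and 0.250 over the genes called. On the FPKM + 1 scale the 7 intervals together reached from a fall of 11.5% to a rise of 14.4%, the low end being that of Cpt1a and the high end that of Ehhadh. With limma voom the log2 interval of Ehhadh was wider, -0.30 to 0.32. The median SE of the 7 genes was 0.0399, against 0.0522 over all genes tested. Changes inside these intervals were not detectable with 3 libraries a group, and a missed threshold does not show that the levels were equal.

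**Figure D3:**
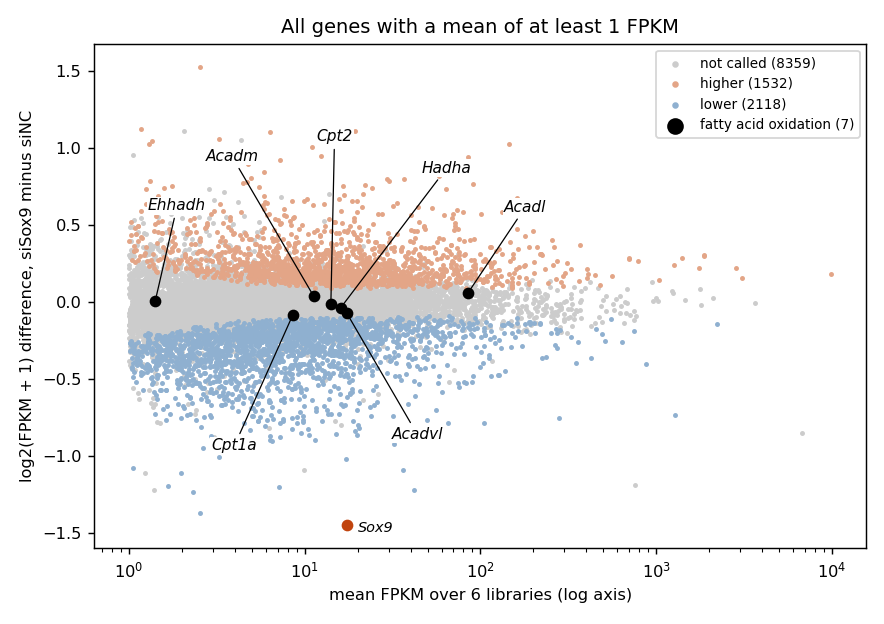
Mean FPKM over the 6 libraries (horizontal, log axis) and difference in log2(FPKM + 1), siSox9 minus siNC (vertical), for the 12009 genes tested, with 1532 called higher and 2118 called lower in colour. The 7 fatty acid oxidation genes (black) lie in the uncalled band around 0, while Sox9 lies at -1.45.

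The other genes around fatty acid oxidation were read in 8 lists of 121 genes, of which 117 were listed and 84 tested. Of the 84, 10 were called higher and 14 lower, together 28.6%, with a median log2(FPKM + 1) difference of -0.03. The share called was thus near the 30.4% of all genes. The count of 24 called fell to 15 without siSox9 replicate 1, to 15 without siSox9 replicate 2 and to 13 with TPM. The genes given as called below are among the 3 largest rises and falls of each list, and genes that did not pass or were under the minimum were named after their values were seen. Of the 21 called genes that this rule takes, 9, Oxct1, Phyh, Fabp5, Plin2, Prkaa1, Prkaa2, Hilpda, Eci1 and Pnpla2, kept the call in every alternative in which they were tested. The other 12 lost it in at least 1.

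Upstream of CPT1, in uptake, activation and the carnitine shuttle, 0 of 12 tested genes were called higher and 6 lower (median -0.15), against 12.8% higher and 17.6% lower over all genes tested. With TPM the count lower fell from 6 to 1. Fabp5, a fatty acid binding protein, read 5.25, 5.05 and 5.96 FPKM with siSox9 and 7.15, 8.65 and 7.80 FPKM with siNC, a log2 difference of -0.46 (limma, adjusted p = 0.00452). Acsl1, an acyl-CoA synthetase, fell from 1.62 ± 0.0656 to 1.17 ± 0.0359 FPKM (SD, n = 3 each; limma, adjusted p = 0.0148), and the transport protein gene Slc27a1 by 0.26 on the log2 scale (limma, adjusted p = 0.0319). Slc25a20, the carnitine carrier that links CPT1 to CPT2, had a log2 difference of -0.15 and did not pass (limma, adjusted p = 0.0696). Cd36, the fatty acid translocase, had -0.01 (limma, adjusted p = 0.936). Cpt1b, the muscle-type isoform, was under the minimum.

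Among the other mitochondrial enzymes, 1 of 14 tested genes was called higher and 2 lower (median -0.07), and 11 were not called. The count lower was 0 without siNC replicate 3, siSox9 replicate 1 or siSox9 replicate 2, and Eci1, the gene called higher, was not among the genes tested with voom. Eci1, the isomerase needed for unsaturated chains, read 29.2, 29.3 and 30.4 FPKM with siSox9 and 24.7, 25.4 and 24.3 FPKM with siNC, a log2 difference of 0.25 (limma, adjusted p = 0.00163). Decr1, the reductase that acts on unsaturated chains with it, went the other way, from 9.43 ± 0.668 to 7.73 ± 0.652 FPKM (limma, adjusted p = 0.0283). Echs1, the short-chain hydratase, fell from 7.31 ± 0.347 to 6.14 ± 0.314 FPKM (SD, n = 3 each; limma, adjusted p = 0.0153). The short-chain dehydrogenase Acads (0.08; limma, adjusted p = 0.142) and the thiolase Acaa2 (-0.12; limma, adjusted p = 0.222) did not pass.

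Among peroxisomal genes, 1 of 14 tested was called higher and 3 lower (median -0.06). With TPM these counts were 0 and 1, and the count higher was also 0 without siNC replicate 3, siSox9 replicate 1 or siSox9 replicate 2. Phyh, the hydroxylase of branched-chain α-oxidation, read 7.24 to 8.44 FPKM with siSox9 and 11.1 to 11.3 FPKM with siNC, a log2 difference of -0.45 (limma, adjusted p = 0.00108). Crot, which makes carnitine esters for export to mitochondria, and Decr2, a reductase, fell by 0.20 and 0.13 on the log2 scale (limma, adjusted p = 0.0109 and 0.0409). Ehhadh itself, as given above, did not pass the test.

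Of the receptors and cofactors other than Ppara and Ppargc1a, 1 of 19 tested was called higher and 1 lower (median 0.04). Lpin1, a phosphatidate phosphatase that also coactivates PPARα with PGC-1α, rose from 1.32 ± 0.142 to 1.84 ± 0.183 FPKM (SD, n = 3 each; limma, adjusted p = 0.0276). Sirt1, the deacetylase that acts on PGC-1α, fell by 0.18 on the log2 scale (limma, adjusted p = 0.0400). Neither call held in every alternative. The count lower was 0 with median-centred or quantile-normalised values, TPM, no filter, a filter at 5 FPKM or the replicate block. It was also 0 without any 1 library other than siNC replicate 3. The count higher was 0 with no filter, a filter at 5 FPKM or the replicate block. It was also 0 without siNC replicate 2 or 3, or without siSox9 replicate 1 or 2. With voom or median-centred values it rose to 3, and with quantile-normalised values to 4. Ppard (0.08; limma, adjusted p = 0.174), Rxra (0.17; limma, adjusted p = 0.129) and Esrra (0.11; limma, adjusted p = 0.230) did not pass, and Pparg and Ppargc1b were under the minimum.

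In the control of CPT1 by malonyl-CoA and AMPK, 2 of 9 tested genes were called higher and 0 lower (median -0.03). These were the catalytic subunits of AMPK, the kinase that lowers malonyl-CoA by inhibiting acetyl-CoA carboxylase. Prkaa1 read 21.1, 20.7 and 21.2 FPKM with siSox9 and 16.7, 16.4 and 17.0 FPKM with siNC, a log2 difference of 0.31 (limma, adjusted p = 5.19e-04). Prkaa2 rose from 5.84 ± 0.214 to 6.99 ± 0.421 FPKM (SD, n = 3 each; limma, adjusted p = 0.0149). The regulatory subunits and Acaca (0.03; limma, adjusted p = 0.730) did not pass. With voom, without siNC replicate 2 or without siSox9 replicate 2, 1 gene of this list was called lower.

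Outside the oxidation enzymes, 2 of 6 tested PPARα target genes were called higher and 0 lower (median 0.15). Of 6 tested genes of lipolysis and lipid droplets, 3 were called higher and 0 lower (median 0.10). Over all genes tested, 12.8% were called higher and 17.6% lower. With TPM, with no filter or with the replicate block, the counts higher were 1 and 2. The same counts were found without siNC replicate 2, siSox9 replicate 2 or siSox9 replicate 3. Voom, and leaving out siNC replicate 3 or siSox9 replicate 1, gave 2 and 2. Median-centred values gave 3 and 4. With voom or the replicate block, 1 gene of lipolysis and lipid droplets was called lower. Plin2, the coat protein of lipid droplets, read 237, 240 and 258 FPKM with siSox9 and 186, 207 and 198 FPKM with siNC, a log2 difference of 0.31 (limma, adjusted p = 0.00387). Angptl4, a secreted inhibitor of lipoprotein lipase, rose by a log2 difference of 0.20 (limma, adjusted p = 0.0418). Hilpda, an inhibitor of lipolysis that hypoxia induces, rose from 7.47 ± 0.272 to 10.1 ± 1.02 FPKM (SD, n = 3 each; limma, adjusted p = 0.00611). Pnpla2, the triglyceride lipase that Hilpda inhibits, rose from 30.2 ± 1.10 to 34.5 ± 1.05 FPKM (SD, n = 3 each; limma, adjusted p = 0.0108), and Dgat1, which makes triglycerides, had a log2 difference of 0.13 (limma, adjusted p = 0.0308). Pdk4, a PPARα target that spares glucose, had 0.18 and did not pass (limma, adjusted p = 0.141).

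In ketone body metabolism, 0 of 4 tested genes were called higher and 2 lower (median -0.18), and Oxct1 kept the call in all 14 alternatives while Bdh1 lost it or was not tested in 7. Oxct1, the enzyme that activates ketone bodies for use as fuel, read 13.3, 13.7 and 14.2 FPKM with siSox9 and 25.4, 26.2 and 25.9 FPKM with siNC, a log2 difference of -0.87 (limma, adjusted p = 4.82e-05). This was the largest difference among the 84 genes, and 12.6% of the Oxct1 exons are shared with the listed gene BC037032. Bdh1, the mitochondrial hydroxybutyrate dehydrogenase, fell from 3.05 ± 0.195 to 2.45 ± 0.0948 FPKM (SD, n = 3 each; limma, adjusted p = 0.0185), with 13.7% of its exons shared with Gm15743.

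**Figure D4:**
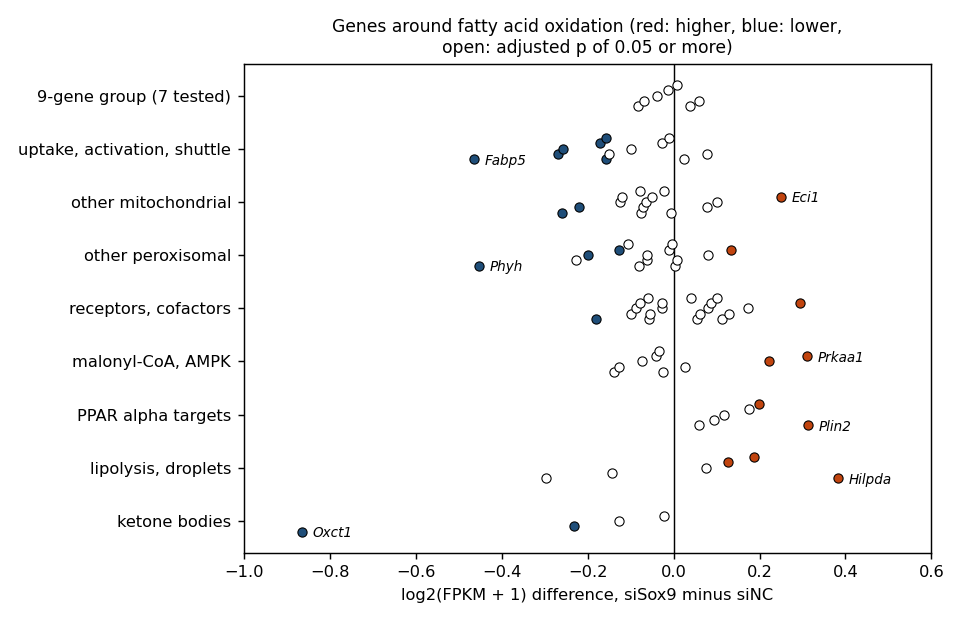
Difference in log2(FPKM + 1), siSox9 minus siNC (horizontal axis), of the 7 fatty acid oxidation genes tested (top row) and of the 84 genes of the 8 other lists (rows); filled points passed the test, 10 higher in red and 14 lower in blue, and the small vertical offsets only separate points. All 7 points in the top row are open, and Oxct1 at -0.87 is the farthest from 0.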

How the data were processed

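RNA-Seq of 6 libraries of primary TECs after H/R (3 siSox9, 3 siNC) was used. Per gene, the authors deposited 1 FPKM value for each library. Per the labels, the submitters' processing notes name Bowtie2 2.2.3, HISAT2 2.1.0, TopHat2 and the build mm9, without their roles, whereas 93.3% of the 30246 genes found in GENCODE M21 have its GRCm38 positions, so positions are given in GRCm38. The counting tool and its strand setting are not given in the sources used here. The columns taken as siSox9 are named for a non-control siRNA, and the labels know no other than siSox9. In 25 rows the gene name had become a date, which was left so. All per-sample columns were used.

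Groups were compared by limma 3.58.1 (R 4.3.3; lmFit, eBayes with a trend, two-sided) on log2(FPKM + 1) in genes averaging 1 FPKM or more, with Benjamini-Hochberg adjustment over all genes tested and calls at an adjusted p under 0.05. No replicate block was used, since the study's methods name an unpaired test. The log2(FPKM + 1) scale understates changes of low genes. FPKM are not counts, so no count model was the main test. Whole reads were recovered with GENCODE M21 exon lengths (whole within 0.02 reads in all 6 libraries for 27948 genes, 92.4% of those found in GENCODE M21). For Cpt1a and Ehhadh, whose positions differ from M21, the nearest length giving whole reads was taken. The limma voom intervals rest on the spread between these libraries, not on counting error alone. The limma script was tested on simulated data. Python 3.11.15, pandas 2.3.3, numpy 2.4.6 and matplotlib 3.10.9 did the rest.

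The 9 genes, the gene lists and the markers were chosen with earlier results of these data known. Named outside the 9 are Sox9, neighbours by position, and up to 3 rises and 3 falls per list past the threshold without overlap of the groups. A gene that this rule takes is not reported here. Markers, Slc25a20, Cd36, Cpt1b, Acads, Acaa2, Ppard, Rxra, Esrra, Pparg, Ppargc1b, Acaca and Pdk4 were named besides, after their values were seen. Alternatives were TPM, median-centred or quantile-normalised values, a pseudocount of 0.1, no filter or a filter at 5 FPKM, the replicate block, leaving out each library, and limma voom, added after the data were seen. TPM here means FPKM divided by their sum in the library and multiplied by the mean of these sums over the 6 libraries. The pseudocount and the filter act on that scale, not on the usual TPM scale.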

Additional observations from a re-analysis of the deposited data

How the results depend on the processing

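None of the 7 tested genes was called in any of the 14 alternatives that tested it, voom and the replicate block included; Ehhadh was not tested with a minimum of 5 FPKM. The difference of Cpt2 turned to 0.0147 with median-centred values and 0.0153 with TPM, and ranged from -0.0507 to 0.0297 when 1 library was left out; that of Ehhadh ranged from -0.0309 to 0.0815, lowest without siSox9 replicate 3. Cpt1a kept its sign throughout, from -0.12 without siSox9 replicate 3 (limma, adjusted p = 0.0677) to -0.06. The genes called lower numbered 2118, against 1376 with a minimum of 5 FPKM, where fewer genes are tested, and 1342 with TPM, where the cause was not tested. Leaving out 1 library gave 943 (without siSox9 replicate 2) to 1564 genes called higher and 1488 to 2089 called lower. Calls in the 8 pathway lists numbered 24, against 13 with TPM and 15 to 26 with 1 library left out. The share of calls that were higher was 42.0%, against 52.6% with median-centred values (1959 higher, 1765 lower); the median of all genes moved from -0.01 to 0.01. Same-numbered libraries did not deviate together (r from -0.05 to 0.06), and the replicate block gave 1373 genes higher and 1889 lower. Of the 21 pathway genes that the naming rule takes, 12 lost the call in at least 1 alternative, 9 of them under another scaling, and 0 changed direction. Depth limits Ppara and Ppargc1a above all.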
